A study of Homo sapiens with 22 samples.

Results

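A set of 36 genes of the Fanconi anemia and homologous recombination repair pathways was followed in neuroblastoma cell lines cultured in hypoxia and in normoxia. The genes were chosen by name, and each was represented by its brightest single-gene probeset, chosen by mean log2 signal among those annotated to that gene alone. By this rule 30 of the 36 genes were measured, out of 19775 genes in all. BRCA2, FANCA, FANCD2, RBBP8, ATRIP and PMS2 were not analysed here: the probe annotation used paired no single-gene probeset with them, and ATRIP and PMS2 were named only on probesets that also belonged to TREX1 and PMS2CL.

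As background, the Fanconi core complex is the ubiquitin ligase that marks FANCI and FANCD2 at DNA cross-links, and the marked pair directs the lesion into nuclease incision and recombination. In homologous recombination the MRE11, RAD50 and NBN complex senses a double-strand break, nucleases resect its ends, and BRCA1, BARD1, PALB2 and BRCA2 act in the steps by which the broken strand is copied from an intact sister. Because the sister copy exists only after replication, many of these genes are transcribed mainly in cycling cells, and ATR and CHEK1 couple the pathway to the S phase checkpoint.

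The data came from 22 Affymetrix HG-U133 Plus 2.0 arrays, 1 for each of 11 lines in hypoxia (1% O2) and 1 for each in normoxia (20% O2). The lines were GI-LI-N, ACN, SHEP-2, SK-N-BE2(C), IMR-32, SK-N-F1, LAN-1, SK-N-SH, GI-ME-N, SHEP21N with MYCN overexpression and SHEP21N without it, where 50 ng/mL tetracycline kept the MYCN transgene off. The labels name no transgene for the other 9 lines. The 3 SHEP lines are related to each other and came from a laboratory, and the other 8 came from a cell line collection. No line had a second culture in either condition, so the lines served as the replicates of the hypoxia comparison and p-values measure the spread of the hypoxia change between lines. Levels are given as the signal divided by the median of the array, which ranged over the arrays from 69.4 to 134 signal units; their number and not a read depth limits the precision.

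Some arrays stood apart. On the normoxic array labelled SHEP21N with MYCN the 3′ to 5′ signal ratio was 67.3 for GAPDH and 94.0 for ACTB, against at most 1.40 and 5.05 on the other 21 arrays. At the second brightest MYCN probeset the 2 arrays with this label had levels of 8.99 in hypoxia and 0.128 in normoxia, and at the brightest one of 0.065 in hypoxia and 0.177 in normoxia. The counts over the members are therefore also given for the 10 lines without this pair. The other SHEP21N arrays stood apart too: on each of the 4 the smallest signal was 3.3 and ACTB ratios ran from 2.70 to 94.0, where the remaining 18 arrays had smallest signals of 0.803 or less and ACTB ratios of 2.54 or less. The part of this in the SHEP21N values was not tested. The arrays labelled IMR-32, SK-N-SH and GI-LI-N correlated at 0.917 to 0.931 with each other across genes, as high as hypoxia and normoxia arrays of one line (0.868 to 0.943), and the SK-N-SH arrays had brightest-probeset MYCN levels of 490 in hypoxia and 421 in normoxia, near those of the other two. Whether they are 3 independent lines was not tested. Summed over 9 measured noradrenergic markers, normoxic levels lay between 499 and 987 in GI-LI-N, SK-N-BE2(C), IMR-32, SK-N-F1, LAN-1 and SK-N-SH. They lay between 3.41 and 55.8 in ACN, GI-ME-N, SHEP-2 and the SHEP21N lines. The 10 mesenchymal markers summed to between 696 and 1661 in the latter lines and between 226 and 450 in the former. Of these markers, VIM alone was at 124 or more in every line in normoxia. The 4 measured blood markers summed to at most 9.86 on any array.

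Hypoxic cultures had lower mean levels of nearly the whole set, by small amounts that varied between lines. The mean log2 change, hypoxia over normoxia, was below 0 for 28 of the 30 genes, against 55.6% of all 19775 genes, and above 0 for 2, against 44.4%. The median change over the members was -0.26, against -0.04 over all genes. No member passed limma's test with the cell line as a block after Benjamini-Hochberg adjustment over all genes, in either direction (adjusted p between 0.119 and 0.974), where 0.0152% of all genes were called lower and 0.147% were called higher. At an unadjusted p under 0.05, 11 members were lower and 0 were higher, against 7.07% and 3.6% of all genes. The genes nearest to the limit were EXO1, a nuclease of end resection, CHEK1, the S phase checkpoint kinase, and BLM, a helicase that acts on resected ends and recombination intermediates.

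Without the SHEP21N with MYCN pair the picture was close. Over 10 lines 29 of 30 mean changes were below 0, against 57.6% of all genes, and 1 was above 0, against 42.4%, with a median of -0.28 over the members and -0.05 over all genes. No member passed the adjusted limit (adjusted p between 0.132 and 0.999), where 0.0152% of all genes were called lower and 0.101% higher. At an unadjusted p under 0.05, 15 members were lower and 0 were higher, against 7.95% and 3.66% of all genes. Of the members, 9 met this looser limit over both 11 and 10 lines, 6 did so only over 10 lines and 2 only over 11. Among the 12519 genes with a mean signal of at least 100, a group that holds all 30 members, 9.03% were lower at this limit in the same fit over 11 lines and 10.6% over 10. Of the members, 8 were lower in hypoxia in at least 10 of the 11 lines and 0 were higher in as many, against 3.44% and 1.37% of all genes. When the cell line was left out of the model as a block, 0 members reached an unadjusted p under 0.05. Of all genes, 0.794% were then lower at this limit over 11 lines, and 0.668% over 10. For no member were the hypoxic and normoxic levels separate across lines, and the share of all genes for which they were is not given here. Among the members described next, the 10-line means were -0.41 for BLM and RAD51C, -0.38 for NBN, -0.46 for BRCA1 and CHEK1, -0.42 for BARD1 and -0.24 for BRIP1, with adjusted p between 0.174 and 0.34.

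**Figure D1:**
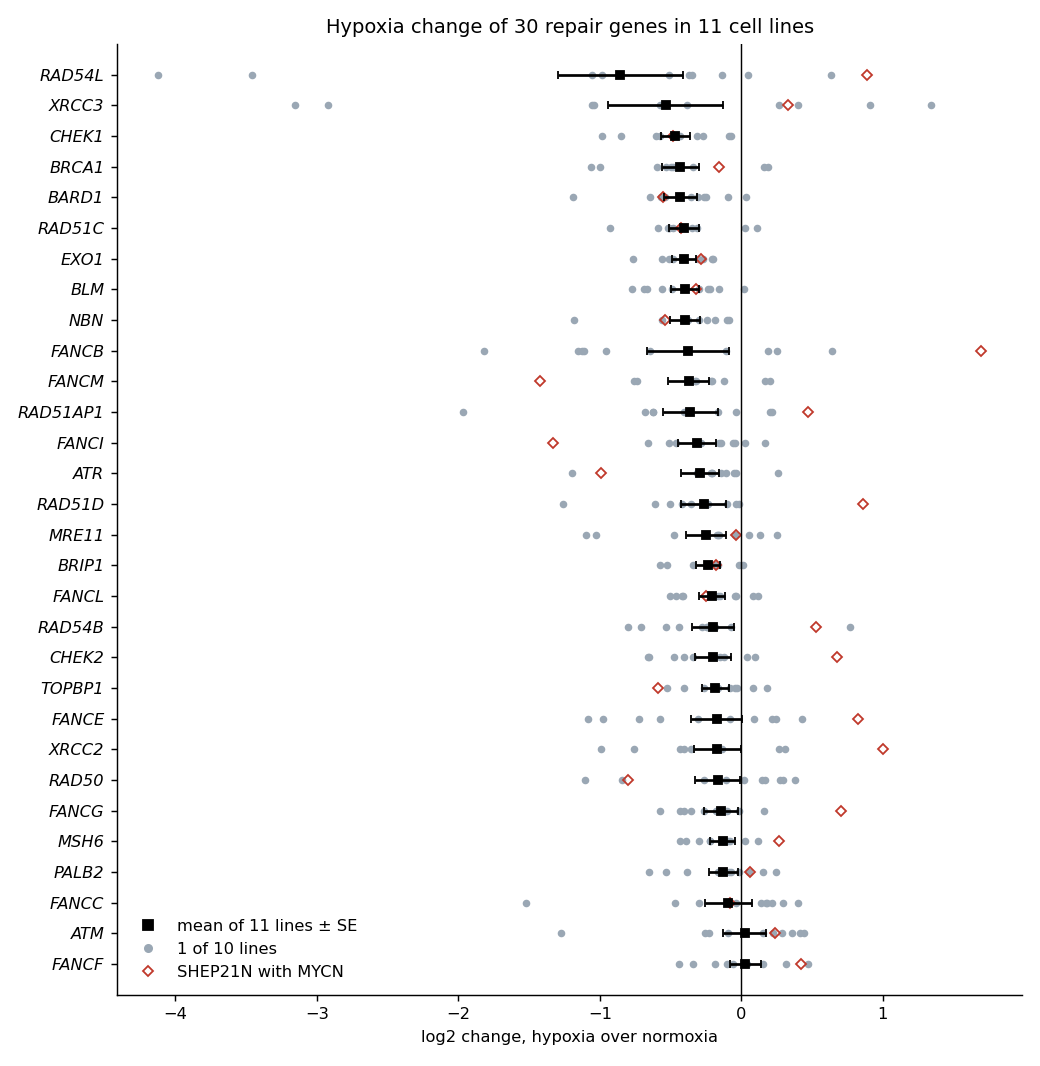
The log2 change of each of the 30 measured genes, hypoxia over normoxia, with the mean over 11 lines and its standard error as black squares, 10 lines as grey points and SHEP21N with MYCN as open red diamonds. Means run from -0.86 for RAD54L to 0.03 for FANCF, and the single lines spread furthest for RAD54L, XRCC3 and FANCB.

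All 5 measured genes of break sensing and end resection had means below 0, and 3 of them, EXO1, BLM and NBN, had an unadjusted p under 0.05. EXO1 had a lowest, median and highest level of 5.73, 16.9 and 39.0 in hypoxia, against 8.17, 24.6 and 44.9 in normoxia. SK-N-F1 was the lowest line and LAN-1 the highest in both conditions, so the 2 groups of arrays overlapped, but EXO1 was lower in hypoxia in 11 of 11 lines. Its log2 change lay between -0.77 in GI-ME-N and -0.20 in LAN-1, with a mean of -0.40 (SE 0.084, limma p = 0.000445, adjusted p = 0.119). Over 10 lines the mean was -0.42 (adjusted p = 0.132).

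BLM had levels of 3.33, 9.14 and 32.4 in hypoxia (lowest, median and highest) and of 5.58, 14.4 and 37.8 in normoxia. It was highest in SK-N-SH in both conditions and lower in hypoxia in 10 of 11 lines, with SHEP21N without MYCN at 0.02. The mean log2 change was -0.40 (SE 0.098, limma p = 0.00162, adjusted p = 0.189). NBN, the subunit of the break-sensing complex that recruits ATM, had levels of 9.82, 17.1 and 64.6 in hypoxia and of 14.5, 24.6 and 69.2 in normoxia. It was lower in hypoxia in 11 of 11 lines, from -1.18 in SHEP21N without MYCN to -0.09 in IMR-32, with a mean of -0.40 (SE 0.109, adjusted p = 0.243). Its 4 other single-gene probesets also had means below 0, from -0.58 to -0.09, but were lower in only 5 to 9 of 11 lines. MRE11, the nuclease of the complex, had a mean log2 change of -0.25 (adjusted p = 0.567) and was lower in 8 lines. The 2 dimmer MRE11 probesets had means of -0.51 and 0.59 and were lower in 6 and 5 lines. RAD50, the ATPase that tethers the ends, had -0.17 (adjusted p = 0.753) and was lower in 5 lines, while its 2 dimmer probesets had means of 0.27 and 0.16.

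Among the BRCA tumor suppressors and partners all 4 measured genes had means below 0, and 3 of them had an unadjusted p under 0.05. BRCA1, a ubiquitin ligase that promotes end resection, had levels of 4.37, 12.5 and 30.1 in hypoxia and of 6.59, 20.6 and 38.1 in normoxia. SHEP-2 was lowest and SK-N-SH highest in both. The log2 change ranged from -1.06 in SK-N-BE2(C) to 0.19 in ACN, was below 0 in 9 of 11 lines, and had a mean of -0.43 (SE 0.130, limma p = 0.00631, adjusted p = 0.268). A dimmer BRCA1 probeset had a mean of 0.19 with an SD of 0.92 over lines, and was lower in 7, and the mean with all probesets averaged was -0.12.

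BARD1, the partner that forms the ligase with BRCA1, had levels of 5.35, 10.9 and 24.9 in hypoxia and of 7.27, 15.1 and 36.2 in normoxia. It was lower in hypoxia in 10 of 11 lines, most in GI-ME-N at -1.19, with a mean log2 change of -0.43 (SE 0.114, limma p = 0.00281, adjusted p = 0.231), and its other probesets had means of -0.32 and -0.48. BRIP1, the helicase that binds BRCA1, had levels of 7.64, 13.7 and 47.4 in hypoxia and of 9.07, 20.4 and 53.6 in normoxia. It was also lower in 10 of 11 lines by a smaller mean of -0.23 (SE 0.085, adjusted p = 0.369). A dimmer BRIP1 probeset had a mean of -0.23 too, but with an SD of 1.07 over lines, and was lower in 7. PALB2, which bridges BRCA1 and BRCA2, had a mean of -0.13 (adjusted p = 0.71) and was lower in 7 lines.

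**Figure D2:**
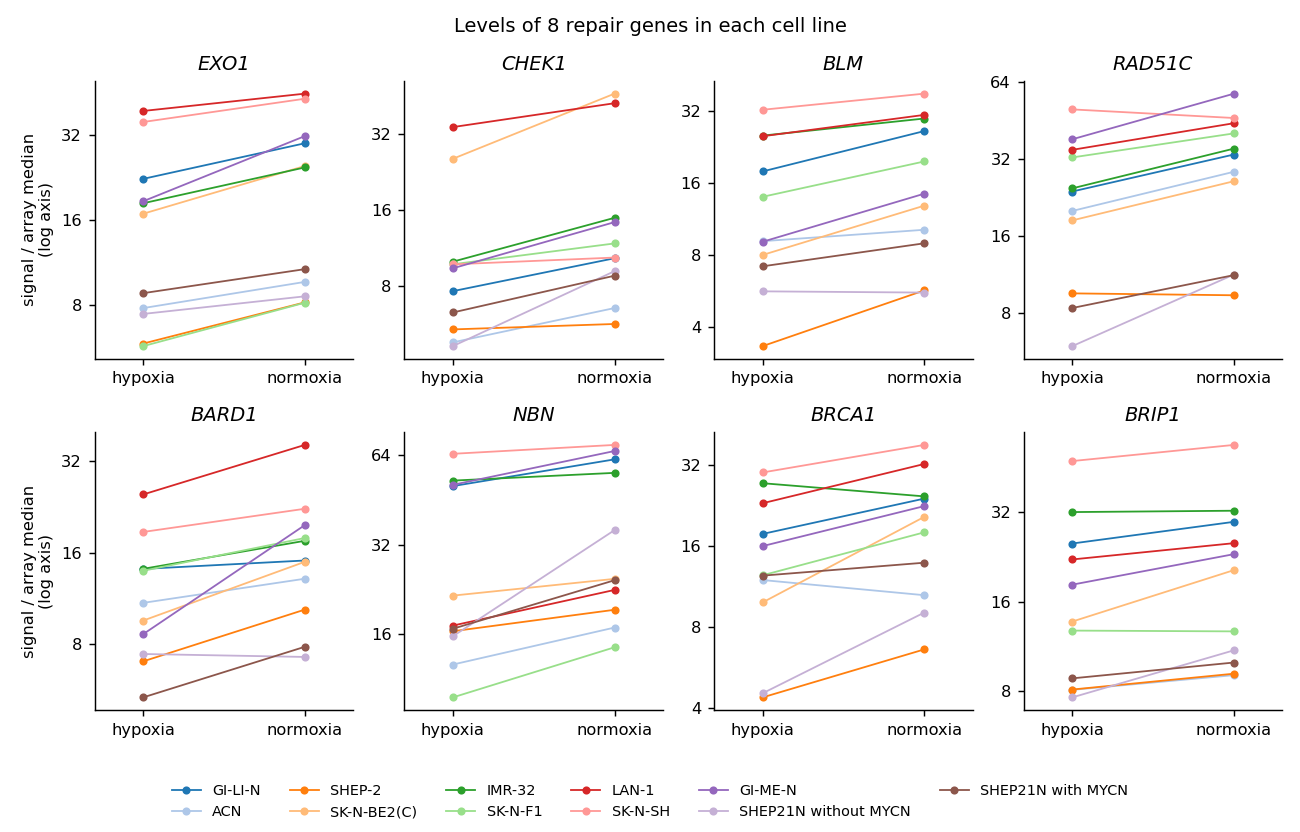
Signal over the array median, on a log axis, of EXO1, CHEK1, BLM, RAD51C, BARD1, NBN, BRCA1 and BRIP1 in hypoxia (left) and normoxia (right), with 1 coloured line per cell line. The distance between cell lines is larger than the distance between conditions. At the brightest probesets shown, EXO1, CHEK1 and NBN are lower in hypoxia in all 11 lines.

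RAD51C, RAD51D, XRCC2 and XRCC3, which work together in recombination, all had means below 0, but only RAD51C had an unadjusted p under 0.05 over 11 lines. RAD51C had levels of 5.95, 23.9 and 50.1 in hypoxia and of 9.41, 33.4 and 57.8 in normoxia. Its log2 change was below 0 in 9 lines, with SHEP-2 at 0.02 and SK-N-SH at 0.11, and averaged -0.41 (SE 0.105, limma p = 0.00227, adjusted p = 0.216). A second probeset had a mean of -0.34. RAD51D was lower in 10 of 11 lines with a mean of -0.27 (adjusted p = 0.584), and SHEP21N with MYCN was the exception at 0.86, so that its mean over 10 lines was -0.38 (SE 0.126, adjusted p = 0.295). XRCC2 had a mean of -0.17 and was lower in 8 lines. XRCC3 was dim and scattered, with a mean of -0.54 (SE 0.409) and single lines between -3.16 in SK-N-F1 and 1.34 in SHEP21N without MYCN.

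RAD54L, a motor protein of recombination, had the lowest mean change of the set and a wide spread. Its level was 0.097, 5.21 and 12.6 in hypoxia (lowest, median and highest) and 1.69, 6.79 and 12.8 in normoxia. In SHEP-2 it was at 0.097 in hypoxia against 1.69 in normoxia, and in ACN at 0.22 against 2.41. Both hypoxic signals, 12.1 and 28.9 units, were far below the array medians, so the size of the log2 changes there (-4.12 and -3.46) is uncertain, while SHEP21N had 0.89 with MYCN and 0.63 without. The mean was -0.86 over 11 lines (SE 0.443, adjusted p = 0.524) and -1.03 over 10 (SE 0.454, adjusted p = 0.42). With signals under 50 set to 50 the mean over 11 lines was -0.60, and without SHEP-2 it was -0.53. RAD54L is represented by 1 probeset. RAD51AP1, a DNA-binding protein of recombination, had a mean of -0.36 (adjusted p = 0.543), with 0.47 in SHEP21N with MYCN and -1.97 in SHEP21N without MYCN, and RAD54B, a motor related to RAD54L, had -0.20 (adjusted p = 0.675).

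In the Fanconi core complex 6 of 7 measured genes had means below 0, 2 of them with an unadjusted p under 0.05, and the median was -0.18. FANCM, the translocase that recognises the stalled fork, had levels of 0.379, 3.23 and 6.05 in hypoxia and of 1.02, 4.04 and 7.01 in normoxia. It was lowest in SHEP21N with MYCN in both conditions, and its mean log2 change of -0.37 (SE 0.146, adjusted p = 0.4) was -0.27 without that pair. FANCL, the catalytic ligase subunit, had levels of 6.31, 16.5 and 35.5 in hypoxia and of 5.82, 20.1 and 36.6 in normoxia, with a mean of -0.20 (SE 0.092, adjusted p = 0.463) and 9 of 11 lines lower. FANCG, an adaptor of the complex, had a mean of -0.14 over 11 lines (adjusted p = 0.711) and -0.23 over 10 (SE 0.093, adjusted p = 0.385), since SHEP21N with MYCN was at 0.70.

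FANCB, another core subunit, was near the array median in most lines, with levels of 0.192, 0.931 and 2.24 in hypoxia and of 0.130, 1.10 and 3.51 in normoxia. Its mean was -0.38 over 11 lines (SE 0.291, adjusted p = 0.692) and -0.58 over 10 (SE 0.239, adjusted p = 0.389), with SHEP21N with MYCN at 1.70. FANCC and FANCE had means of -0.09 and -0.18 and were lower in 5 and 6 lines, and FANCF had a mean of 0.03 and was lower in 5. A dimmer FANCF probeset had a mean of -0.10 and was lower in 8 lines. FANCI, the substrate of the complex, had levels of 10.6, 34.1 and 69.8 in hypoxia and of 15.1, 38.1 and 72.2 in normoxia. Its mean of -0.31 (SE 0.135, adjusted p = 0.441) included -1.33 in SHEP21N with MYCN and was -0.21 without it (adjusted p = 0.451), and its 2 dimmer probesets had means of -0.08 (lower in 8 lines) and -0.32 (lower in 11 lines).

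Of the checkpoint genes CHEK1 stood nearest to the limit. Its lowest, median and highest levels were 4.64, 9.41 and 33.9 in hypoxia and 5.68, 10.4 and 46.0 in normoxia. LAN-1 and SK-N-BE2(C) were well above the other 9 lines in both conditions. CHEK1 was lower in hypoxia in 11 of 11 lines, from -0.98 in SHEP21N without MYCN to -0.07 in SHEP-2, with a mean log2 change of -0.47 (SE 0.105, limma p = 0.000848, adjusted p = 0.151). Its other 2 probesets with a mean signal of at least 100 had smaller means, -0.01 and -0.23, and were lower in 7 and 8 lines, and the mean with all its probesets averaged was -0.07. CHEK2, the kinase downstream of ATM, had a mean of -0.20 over 11 lines (adjusted p = 0.615) and -0.29 over 10 (SE 0.103, adjusted p = 0.329). ATR, the kinase upstream of CHEK1, was lower in 10 of 11 lines with a mean of -0.29 (SE 0.137, adjusted p = 0.478), with SHEP21N at -0.99 with MYCN and -1.20 without. TOPBP1, the activator of ATR, had a mean of -0.18 (adjusted p = 0.531).

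ATM, the kinase that answers double-strand breaks, had a mean close to 0. It had levels of 1.84, 11.5 and 22.3 in hypoxia and of 1.58, 10.3 and 26.0 in normoxia, and was lower in hypoxia in 4 of 11 lines, with a mean of 0.02 (SE 0.154, adjusted p = 0.974). GI-LI-N was at -1.27 and the other lines lay between -0.26 and 0.44. MSH6, a mismatch recognition protein that was included with the set, had a mean of -0.13 (SE 0.091, adjusted p = 0.643) and was lower in 8 lines. Of the members, 13 had an unadjusted p above 0.05 in both fits, with means between -0.54 and 0.03. Of the 38 further single-gene probesets of the 17 members with several, 27 had a mean on the same side of 0 as the brightest one, and for 8 of these members every probeset did.

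Promoter sequences are shown for BLM, BRIP1 and CHEK1, whose brightest probesets were lower in at least 10 of 11 lines, and for FANCF. The brightest FANCF probeset had a mean close to 0. These genes were picked because they hold the same short word, set side by side here in genes that differ at the brightest probeset. EXO1, BARD1 and RAD51C, which were also lower in most lines, do not hold it. Each stretch is the 150 bases before the transcription start from RefSeq (build GRCh38.p14), read 5′ to 3′ on the strand of the gene, and for CHEK1 the first listed of 3 starts was used. Capitals mark the word CCAAT in either orientation (ATTGG when it is on the other strand), which is the core of the NF-Y site common in cell cycle promoters. BLM is at chr15:90717196-90717345 on the plus strand, BRIP1 at chr17:61863529-61863678 on the minus strand, CHEK1 at chr11:125626079-125626228 on the plus strand and FANCF at chr11:22625824-22625973 on the minus strand.
BLM: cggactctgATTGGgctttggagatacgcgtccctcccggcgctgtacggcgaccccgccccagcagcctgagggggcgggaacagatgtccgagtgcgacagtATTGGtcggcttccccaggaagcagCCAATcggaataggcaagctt
BRIP1: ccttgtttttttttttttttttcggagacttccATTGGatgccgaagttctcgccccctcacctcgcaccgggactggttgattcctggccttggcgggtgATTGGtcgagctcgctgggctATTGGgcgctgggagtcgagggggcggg
CHEK1: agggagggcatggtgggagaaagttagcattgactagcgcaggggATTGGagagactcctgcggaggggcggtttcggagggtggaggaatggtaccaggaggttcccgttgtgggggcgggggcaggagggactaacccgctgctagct
FANCF: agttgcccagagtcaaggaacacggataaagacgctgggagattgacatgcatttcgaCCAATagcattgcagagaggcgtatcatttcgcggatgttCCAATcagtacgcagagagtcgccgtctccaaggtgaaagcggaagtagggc

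The word occurs 3 times in the stretches of BLM and BRIP1, 1 time in that of CHEK1 and 2 times in that of FANCF. Windows of 300 bases, 250 before and 50 after a start, were matched by symbol for 27 of the 30 members, 9 of which had several windows. A word was counted for a gene if any of its windows held it. The share of all genes with several windows is not given here. On both strands, CCAAT was found for 14 of the 27 (51.9%), against 41.7% of 15384 measured genes with a window. The E2F words TTTCCCGC, TTTCGCGC, TTTGCCGC and TTTGGCGC were found for 5 (18.5%: EXO1, FANCC, MSH6, TOPBP1 and XRCC2), against 5.36% of the genes. The words TTTGAA and TTCGAA of the cell cycle homology region were found for 3 (11.1%), against 17.2%, and the hypoxia response core ACGTG or GCGTG for 21 (77.8%), against 62.3%. All 5 members with an E2F word also had a hypoxia response core in some window, but the first listed EXO1 window held the E2F word and no such core. BLM, BRIP1, CHEK1, CHEK2, FANCB and FANCL had neither an E2F word nor a hypoxia response core. These are counts of letters in a window.

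By line, the median change over the 30 members was below 0 in 10 of 11 lines and ranged from -0.47 in SHEP21N without MYCN to 0.00 in SK-N-SH. GI-ME-N followed at -0.46, with 28 of 30 members lower. SK-N-F1, GI-LI-N, SK-N-BE2(C), ACN, LAN-1, SHEP-2 and IMR-32 lay between -0.32 and -0.17, with 22 to 26 members lower. SHEP21N with MYCN had -0.06 and 16 members lower, and SK-N-SH had 15 lower and 15 higher. In SK-N-SH the median of all genes was itself 0.12. On the deposited scale, after quantile normalization, and after division by the median of genes with a mean signal of at least 100, the member median was below 0 in all 11 lines, and SK-N-SH was then at -0.14, -0.14 and -0.13. Of all 330 pairs of a member and a line 248 were below 0 (75.2%), against 53.4% of all pairs of a gene and a line. The 8 collection lines alone had a median member change of -0.28 and 28 members with means below 0, where 59.1% of all genes were, and the 3 SHEP lines had -0.36 and 21 members, where 48.9% were.

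**Figure D3:**
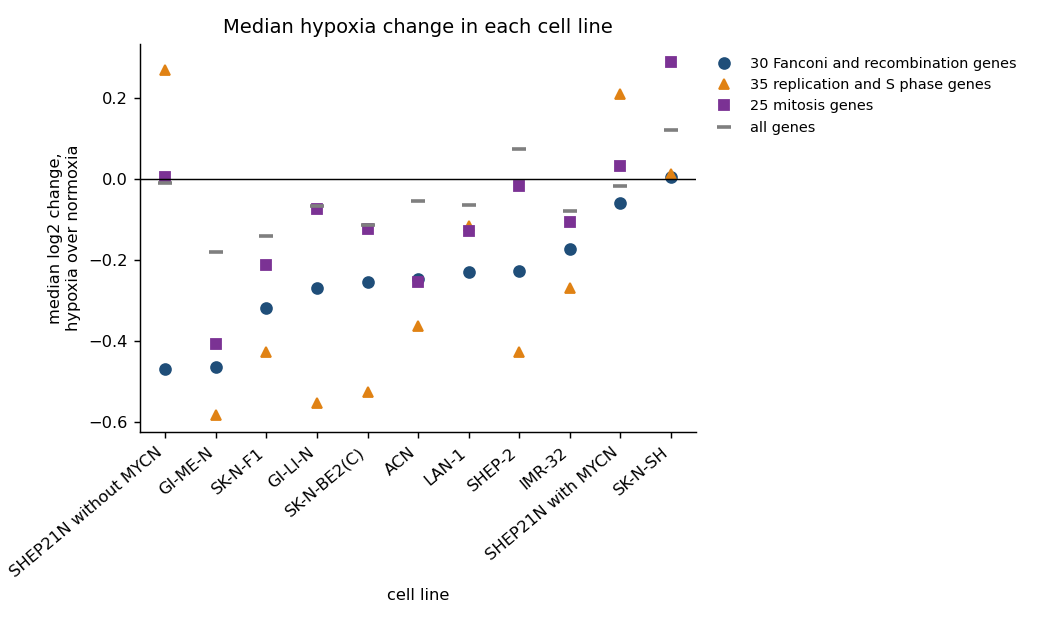
The median log2 change, hypoxia over normoxia, in each cell line for the 30 repair genes (circles), 35 replication and S phase genes (triangles), 25 mitosis genes (squares) and all genes (dashes). The repair genes lie below 0 in 10 lines, and in SHEP21N the replication genes are above 0, at 0.21 with MYCN and 0.27 without, while the repair genes are at -0.06 with MYCN and -0.47 without.

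None of the rest of the pathway passed the adjusted limit. Of 39 further measured genes of homologous recombination and Fanconi repair, 30 had means below 0, against 55.6% of all genes, with a median of -0.16, and 7 were lower and 0 higher at an unadjusted p under 0.05, against 7.07% and 3.6% of all genes. Their difference from the members was not tested. The smallest p-values belonged to FIGNL1, an AAA ATPase, at -0.40 (SE 0.090, adjusted p = 0.153, 11 of 11 lines lower), to RPA3, a subunit of the single-strand binding protein, at -0.35 (adjusted p = 0.244, 10 lines), and to POLQ, the polymerase of microhomology-mediated end joining, at -0.32 (adjusted p = 0.249, 11 lines).

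Genes of replication and S phase are set beside the members because many repair genes are transcribed with them. Of 35 measured, 30 had means below 0, against 55.6% of all genes, with a median of -0.22. At an unadjusted p under 0.05, 15 were lower and 0 higher, against 7.07% and 3.6% of all genes. Over 10 lines the median was -0.27 and 21 were lower, against 7.95% of all genes. CCNE2, a cyclin of the G1 to S transition, had -0.70 over 11 lines (SE 0.136, adjusted p = 0.0924) and passed the adjusted limit over 10 lines at -0.79 (adjusted p = 0.0356). POLE2 and RRM2, a subunit of polymerase epsilon and a subunit of ribonucleotide reductase, had -0.54 (adjusted p = 0.117) and -0.53 (adjusted p = 0.12). The 25 mitosis genes had a median of -0.07 over 11 lines with 3 lower and 0 higher, with ANLN at -0.25, CCNA2 at -0.21 and KIF11 at -0.22. In the same fit 9.03% of genes with a mean signal of at least 100 were lower. The part of cycling cells in the lower repair values was not tested, and in a bulk culture fewer cycling cells and less RNA per cell cannot be told apart. In the same arrays all 14 measured targets of the hypoxia-inducible factor had means above 0, against 44.4% of all genes, with a median of 1.84. By limma 9 were called higher, against 0.147% of all genes. Among them were ANKRD37 at 1.70 (SE 0.155, adjusted p = 0.00313), ALDOC at 2.31 (adjusted p = 0.00761) and DDIT4 at 2.33 (adjusted p = 0.00761). Most of these targets, with ANKRD37, ALDOC and DDIT4, belong to the hypoxia signature that the authors derived from the same lines. Their rise is therefore no independent check.

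The members differed far more between lines than between conditions. In the same limma model the cell line term passed at an adjusted p under 0.05 for 27 of 30 members, against 64.2% of all genes, and over 10 lines for 29 of 30, against 64.4%. RAD51D, XRCC3 and ATR were the exceptions over 11 lines, and XRCC3 over 10. For this term the error was the spread between the hypoxic and normoxic arrays of a line, once the mean change was taken out. No line had a second culture in a condition, so line, culture and array cannot be told apart there. The SD of the normoxic log2 level over lines was between 0.39 and 1.29 with a median of 0.84, against a median of 0.87 for genes with a mean signal of at least 100. It exceeded the SD of the hypoxia change for 26 members, and the share of all genes for which it did is not given here. The median SD of the change was 0.41 for the members. Over all genes the median SD of the level was 1.10 and that of the change 0.90, so the level varied more there too. The ratio of the highest to the lowest normoxic level was between 2.53 for ATR and 26.9 for FANCB over 11 lines, and between 2.53 for ATR and 16.5 for ATM without SHEP21N with MYCN.

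The most variable members were ATM, FANCB, EXO1, FANCM and BLM. ATM was at 26.0 in ACN and at 1.59 in SHEP21N with MYCN and 1.58 without, and SHEP-2, a related line, was at 10.8 (SD 1.29 on the log2 scale, adjusted p of the line term 1.7e-05). These are levels at the brightest ATM probeset. The SHEP21N arrays stood apart, as described above, and the part of this in the ATM levels was not tested. FANCB was at 3.51 in GI-ME-N and 2.80 in ACN and at 0.130 in SHEP21N with MYCN (SD 1.28, 0.84 without that line). EXO1 had high and low lines in normoxia: LAN-1, SK-N-SH, GI-ME-N, GI-LI-N, SK-N-BE2(C) and IMR-32 were between 24.6 and 44.9, and ACN, SHEP-2, SK-N-F1 and both SHEP21N lines between 8.17 and 10.7. FANCM was highest in LAN-1 at 7.01, and SHEP-2 and both SHEP21N lines were between 1.02 and 1.21. BLM was highest in SK-N-SH at 37.8 and lowest in SHEP21N without MYCN and SHEP-2 at 5.58 and 5.69. CHEK1 had a pattern of its own, with 46.0 in SK-N-BE2(C) and 42.1 in LAN-1 against 5.68 to 14.9 in the other 9 lines.

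As a set the members were highest in LAN-1 and SK-N-SH. The median deviation of the normoxic level from the mean of each gene over lines was 0.79 on the log2 scale in LAN-1, where 28 of 30 members were above their mean, and 0.71 in SK-N-SH, where 25 were. It was lowest in SHEP-2 at -1.05, where 29 of 30 members were below their mean and 13 had their lowest level, and was -0.58 in ACN, -0.52 in SHEP21N with MYCN and -0.45 in SHEP21N without MYCN. The replication genes deviated by 0.93 in LAN-1, 0.75 in SK-N-SH and -1.53 in SHEP-2, and genes with a mean signal of at least 100 by 0.41, 0.26 and -0.60. With 3 other scalings of the arrays LAN-1 was between 0.36 and 0.45, SK-N-SH between 0.45 and 0.48 and SHEP-2 between -0.53 and -0.36, and both SHEP21N lines stayed below 0. SHEP-2 was the lowest line on the deposited scale too, but SHEP21N without MYCN was lower, at -0.58 and -0.60, after quantile normalization and with division by the median of genes with a mean signal of at least 100. The deviation for ACN, SK-N-F1 and GI-ME-N turned its sign with the scaling.

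**Figure D4:**
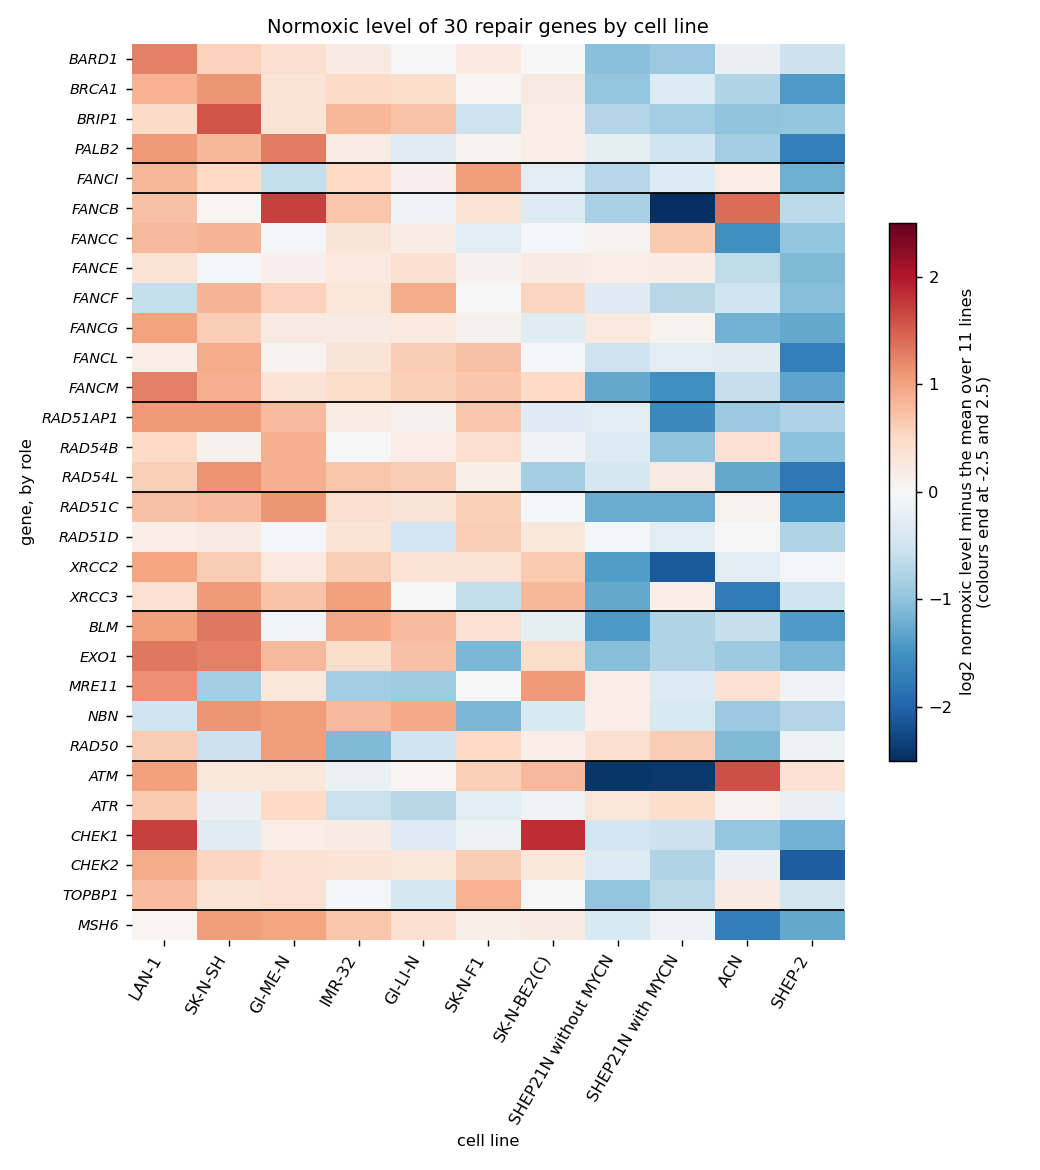
The normoxic log2 level of each of the 30 genes in each of the 11 cell lines, less the mean of that gene over the lines, in red where higher and blue where lower, with genes ordered by role and lines by their median. LAN-1 and SK-N-SH on the left are mostly red, SHEP-2 on the right is mostly blue, and ATM in both SHEP21N lines and CHEK1 in SK-N-BE2(C) and LAN-1 stand out.

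The same SHEP21N cells with and without MYCN gave 1 array each per condition, so the difference has no replicate check and no test. Only the cells without MYCN had 50 ng/mL tetracycline, so the drug and MYCN cannot be told apart. In hypoxia the MYCN level with and without MYCN was 0.065 and 0.134 at the brightest probeset, and 8.99 and 0.267 at the second brightest. In hypoxia 27 of the 30 members were higher with MYCN, where 51.3% of all genes were, with a median log2 difference of 0.40 against 0.02 over all genes. BRCA1 was at 12.4 with MYCN and 4.52 without, RAD51D at 5.56 and 2.53, and RAD54L at 12.6 and 6.82, while FANCM, FANCI and BARD1 were lower with MYCN, at 0.379 and 0.729, 11.0 and 19.4, and 5.35 and 7.43. In normoxia 15 members were higher with MYCN, where 46.2% of all genes were, and the median difference was 0.00. The normoxic array with MYCN is the one with the high 3′ to 5′ ratios, and its MYCN level at the second brightest probeset was 0.128. The part of its RNA quality in these values was not tested.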

How the data were processed

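The deposited intensity values of 22 HG-U133 Plus 2.0 arrays were quantified by the authors with MAS5 (named in the submitters' processing notes), on a linear scale with a trimmed mean near 500 on each array. Of 54675 probesets, 41091 had 1 gene symbol, 1801 several and 11783 none or were controls. Signals were taken to log2, and the median over all 54675 probesets was subtracted from each array. Hypoxia was then tested for 19775 genes in limma 3.58.1 (R 4.3.3), blocked on the cell line. Each line gave a hypoxic and a normoxic array (r between 0.868 and 0.943 across genes). The test and its count of calls were tested on simulated data. P-values were adjusted over all genes. Alternatives changed the scaling, the floor (50), the minimum mean signal (100), the probesets, the block, the test and the lines. Members with an unadjusted p under 0.05 over 11 or 10 lines (at most 12, by the 11-line p) and the 5 with the largest normoxic SD were described in full; RAD51D, FANCG, CHEK2 and others were added by role. Of the lists beside them the 3 smallest p-values were named. The members, the gene lists and these rules were chosen with earlier results of these data known.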

Additional observations from a re-analysis of the deposited data

Results flagged for a closer look

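Over the 10 lines without SHEP21N with MYCN, 7 of 30 members had 1 line whose hypoxia change stood apart from the other 9 by Dixon's test (the gap to the nearest line over the range), where chance gives about 1 in 20. The same test set apart a line for 2765 of all 19775 genes and for 18.1% of genes with a mean signal of at least 100, against 23.3% of the members. SHEP21N without MYCN was lower than the other lines for 3 genes: RAD51AP1 at -1.97 (the others between -0.68 and 0.22), NBN at -1.18 (between -0.56 and -0.09) and ATR at -1.20 (between -0.31 and 0.26). ACN was lower for RAD51D at -1.26 (between -0.61 and -0.02) and for FANCC at -1.52 (between -0.47 and 0.40). GI-LI-N was lower for ATM at -1.27 (between -0.26 and 0.44), and SK-N-SH was higher for RAD54B at 0.76 (between -0.80 and -0.07). The normoxic SHEP21N without MYCN array had an ACTB 3′ to 5′ ratio of 5.05, against 2.70 on its hypoxic array, and the part of RNA quality in its changes was not tested.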

How the results depend on the processing

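Over 11 lines the adjusted limit called 0 members lower. The count was 1 with a floor of 50 (EXO1) and 2 among genes with a mean signal of at least 100 (EXO1 and CHEK1). It was 1 with the methods' t-test, here paired and without their 2-fold selection (EXO1), and 5 with limma's intensity trend (EXO1, CHEK1, RAD51C, BLM and NBN). It was 0 when any 1 line was left out. Calls over all 19775 genes rose too, from 3 lower to 29 with the floor, 69 with the t-test and 124 with the trend. Of the 12519 genes with a mean signal of at least 100, 45 were called lower. With 1 line left out, 0 to 3 of all genes were. No alternative called a member higher. The 11 members lower at an unadjusted p under 0.05 (7.07% of all genes were) were 7 when all probesets of a gene were averaged (5.86%). They were 0 with no replicate block (0.794%) and 9 to 15 with 1 line left out (5.74% to 7.95%). Over 10 lines the 15 members (7.95% of all genes) were 9 with the values as deposited (5.73%). They were 0 with no replicate block (0.668%) and 11 to 15 with a further line left out (6.18% to 9.23%). With the SHEP lines averaged and IMR-32, SK-N-SH and GI-LI-N averaged too, which was chosen after seeing the data, 11 and 15 members were lower. Of all genes, 8.01% and 8.75% then were. The median member change lay between -0.30 and -0.21 with 1 line left out, and 25 to 29 members differed between lines. Averaging all probesets of a gene moved the mean of CHEK1 to -0.07 and that of BRCA1 to -0.12, and leaving out both SHEP21N lines moved FANCM to -0.22. For XRCC3, RAD54L and FANCB the SD of the change over lines was 1.45, 1.57 and 1.02, so that a change of the size seen for EXO1 was not detectable.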

Other observations

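Non-homologous end joining joins broken ends without a template. Of its 8 measured genes 6 had means below 0, against 55.6% of all genes, with a median log2 change of -0.15. At an unadjusted p under 0.05 over 11 lines 1 was lower and 0 higher, against 7.07% and 3.6% of all genes. The lower gene was LIG4, the ligase of the pathway, at -0.50 (SE 0.119, limma p = 0.00134, adjusted p = 0.18), and it was lower in hypoxia in 11 of 11 lines. XRCC5, a subunit of the Ku end-binding protein, had -0.14 (adjusted p = 0.604) and XRCC4, the partner of LIG4, had -0.27 (adjusted p = 0.683). Of 3 further mismatch repair genes, MLH3 had -0.26 and PMS1 -0.25 (adjusted p = 0.543 each), and MSH3 had 0.04 (adjusted p = 0.951).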
